A study of Homo sapiens with 12 samples.

Results

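The genes described here build and fill the lysosome, and 39 of them were taken by name from the 61587 genes of an RNA-seq table of A2058 melanoma cells. They are 15 subunits of the vacuolar proton pump (V-ATPase), 7 cathepsins, 5 sugar-cleaving enzymes, 5 proteins of lipid breakdown and sterol export, 2 other proteins of the lumen and 5 proteins of the lysosomal membrane. Of the 61587 genes, 15738 reached at least 1 TPM (transcripts per 1000000) in at least 3 libraries and were tested, and all 39 members were among them. A2058 is an established human cutaneous melanoma line. Cells received siRNA 1 against SOX10 (siSOX10_1), siRNA 2 against SOX10 (siSOX10_2) or a negative control siRNA (siCNTL), each at 12.5 nM with Lipofectamine RNAiMAX for 96 hours before RNA extraction, or were left untreated. Each of the 4 groups had 3 libraries, and each of 3 batches given in the labels held 1 library of every group. Separate cultures are not stated in the labels for these libraries, and a p-value here weighs only the spread among libraries of a single cell line, which may be technical. In bulk RNA, fewer cells of a type and less RNA per cell cannot be told apart.

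The lysosome digests proteins, sugars and lipids in an acidic lumen. Its acid comes from the V-ATPase, in which a cytosolic V1 part hydrolyses ATP and turns a ring in the membrane-bound V0 part that carries protons inward. Many genes of the lysosome hold an E-box sequence called the CLEAR element near their start sites, which the MiT/TFE transcription factors TFEB, TFE3 and, in pigment cells, MITF can bind. SOX10 is a transcription factor of the melanocyte lineage that acts upstream of MITF, and the melanosome is an organelle related to the lysosome.

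SOX10 itself was at 3.32 to 12.8 TPM in the 6 SOX10 siRNA libraries, against 22.3 to 36.8 TPM in the 6 siCNTL and untreated libraries, so the target was lower in every library labelled for it. Summed TPM of 8 melanocyte lineage markers lay between 424 and 2847 in siSOX10_1, 391 and 2118 in siSOX10_2, 6984 and 11217 in siCNTL, and 10162 and 11169 in untreated cells. Because CD68, CTSS and CTSK are also macrophage or osteoclast genes, 10 macrophage and monocyte markers were summed. They reached 0.480 to 1.20 TPM in siSOX10_1, 1.36 to 1.74 TPM in siSOX10_2, 0.434 to 1.55 TPM in siCNTL and 0.601 to 1.32 TPM in untreated cells. Of these 10 markers, 8 stayed below 1 TPM in every library, and CD163, C1QA and C1QB were listed at 0 in all 12. The 3 keratinocyte markers summed to at most 0.815 TPM in any library. The 5 fibroblast markers summed to 112 to 161 TPM in siSOX10_1, 64.2 to 79.5 TPM in siSOX10_2, 174 to 205 TPM in siCNTL and 150 to 227 TPM in untreated cells, with LUM carrying most of it. The part of these shifts in the lysosomal values was not tested.

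Under SOX10 knockdown most of the listed genes of the proton pump fell, while cathepsins, lipid proteins and membrane proteins moved in both directions. Of the 5 glycosidases, 2 fell and none rose with the mean of both siRNAs. With both SOX10 siRNAs averaged and set against siCNTL, 20 of the 39 members fell, 5 rose and 14 did not pass (limma on log2(TPM + 1), Benjamini-Hochberg adjusted p under 0.05 over all 15738 genes). Over all genes tested, 12.9% fell and 20.2% rose in the same comparison. Of the 15 V-ATPase genes, 13 fell and none rose, with a median log2 fold change of -0.62. The other 24 members had 7 that fell and 5 that rose, with a median of -0.26, beside a median of 0.075 over all genes tested.

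Taken alone, each siRNA was set against the same siCNTL libraries. With siSOX10_1, 17 members fell and 5 rose, beside 11.7% lower and 15.6% higher among all genes. With siSOX10_2, 18 fell and 4 rose, beside 10.4% lower and 18.4% higher among all genes. There were 13 members that fell with both siRNAs and 4 that rose with both, namely CTSB, NPC1, GRN and CD68. The share of all genes that passed with both siRNAs was not counted. No member passed in opposite directions. When all libraries were rescaled by median-of-ratios factors, the median of all genes in the siSOX10_2 comparison moved by -0.12 on the log2 scale, and under quantile normalization it moved by -0.14. The V-ATPase median was -0.52 with siSOX10_2 as deposited, -0.66 under median-of-ratios scaling and -0.55 under quantile normalization, and 11 of 15 subunits passed as lower each time. With siSOX10_1, 12 passed as lower as deposited and under median-of-ratios scaling. Under quantile normalization 11 did, and ATP6AP2 passed as higher (0.27, limma adjusted p = 0.0494).

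**Figure D1:**
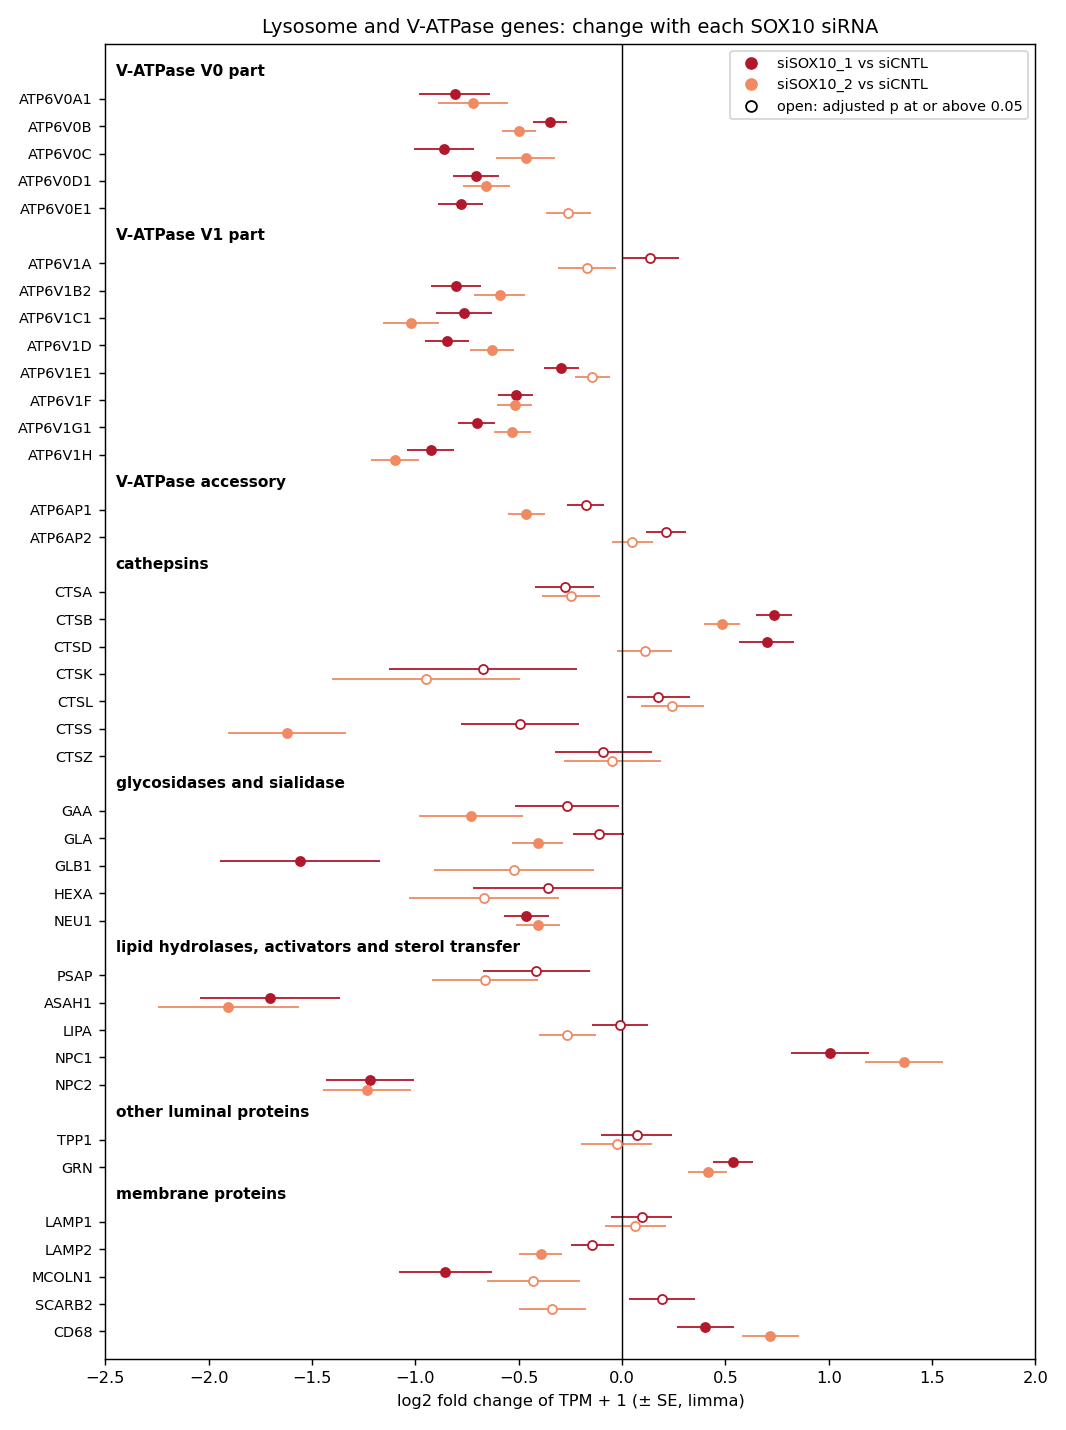
Log2 fold change of the 39 members against siCNTL, grouped by role, with dark red points for siSOX10_1, orange points for siSOX10_2, bars for standard errors and open points where the adjusted p did not pass. Among V0 and V1 subunits ATP6V1A with siSOX10_1 is the one point right of zero, whereas cathepsins, lipid proteins and membrane proteins lie on both sides.

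The promoters of the members were searched for the letters that MiT/TFE factors bind. RefSeq windows on GRCh38.p14, running 250 bases before to 50 bases after a start site, were found for 27 of the 39 members. The 12 without a window were ATP6V0E1, ATP6V1A, ATP6V1B2, ATP6V1C1, ATP6V1H, CTSB, CTSK, CTSS, HEXA, PSAP, ASAH1 and LAMP2. The letters CACGTG, which read the same on both strands, stood in a window of 9 of these 27 members (33.3%), against 8.77% of 27305 genes with RefSeq windows. Those 27305 genes were not filtered for expression, whereas all members were expressed. The longer palindrome TCACGTGA stood in 6 (22.2%) against 1.18%, and its longer CLEAR form, flanked by a G before and a C after, in 3 (11.1%) against 0.421%. Each longer motif contains the shorter ones. Members were chosen as lysosomal genes, many of which are known to hold this element. A higher share among them was therefore foreseeable and is not a finding of these data. The letters CATGTG, searched on both strands, stood in 7 members (25.9%) against 13.4% of genes. The 6 members with TCACGTGA are shown because they set genes that fell beside genes that did not pass under the same letters. Sequences read 5′ to 3′ on the gene's strand, and capitals mark TCACGTGA, or the longer form where it is present. The first 3 genes fell with the mean of both siRNAs, and the last 3 did not pass.
ATP6V0D1, chr16:67481200-67481227, minus strand: ccccttatggTCACGTGAggcgcttgcg
ATP6V1G1, chr9:114587700-114587727, plus strand: cgctgtgcgGTCACGTGACaacgggggc
MCOLN1, chr19:7522572-7522623, plus strand: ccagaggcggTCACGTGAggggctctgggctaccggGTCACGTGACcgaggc
CTSA, chr20:45891299-45891326, plus strand: gcgccggagtTCACGTGActcgtacaca
GAA, chr17:80101494-80101566, plus strand: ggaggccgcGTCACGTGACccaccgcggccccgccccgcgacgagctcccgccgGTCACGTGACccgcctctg
LAMP1, chr13:113297200-113297244, plus strand: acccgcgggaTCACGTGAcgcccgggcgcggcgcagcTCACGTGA

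The TCACGTGA closest to the RefSeq start site began 60 bases before it in ATP6V0D1, 59 in ATP6V1G1, 15 in MCOLN1, 26 in CTSA, 32 in GAA and 2 in LAMP1, where it runs across the start site. GAA held the longer form at 2 places and MCOLN1 and ATP6V1G1 at 1. TCACGTGA stood at 2 places in MCOLN1, GAA and LAMP1 and at 1 in the other 3 genes. Among members with a window, TCACGTGA was found in 3 of 13 that fell, 0 of 4 that rose and 3 of 10 that did not pass. CACGTG was found in 5 of 13, 1 of 4 and 3 of 10 of them, and in 3 of 10 V-ATPase genes against 6 of 17 other members. These matches describe letters in a window and not binding.

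All 5 members of the V0 part, which forms the proton path through the membrane, fell with the mean of both siRNAs, with a median log2 fold change of -0.66. ATP6V0A1, the large a subunit that lines the proton path (chr17:42458844-42522582), had 29.6, 34.9 and 23.2 TPM in the siSOX10_1 libraries and 30.4, 34.2 and 27.9 TPM in the siSOX10_2 libraries, against 44.3, 63.0 and 48.5 TPM in siCNTL and 49.7, 46.3 and 44.9 TPM in untreated cells. All 6 SOX10 siRNA libraries were below all 6 others, and the log2 fold change was -0.77 ± 0.15 (SE; limma adjusted p = 0.00148). ATP6V0D1, which couples the ring to the rotor of V1 (chr16:67438014-67481181), had 158, 145 and 140 TPM in siSOX10_1 and 147, 138 and 174 TPM in siSOX10_2, against 244, 269 and 213.3 TPM in siCNTL and 253, 251 and 243 TPM in untreated cells. Again the groups did not overlap, and the change was -0.68 ± 0.097 (SE; limma adjusted p = 0.00017). ATP6V0C, the proteolipid of the rotating ring (chr16:2513952-2520218), had 53.7, 42.9 and 45.8 TPM in siSOX10_1 and 59.6, 53.9 and 75.7 TPM in siSOX10_2, against 78.9, 86.4 and 95.5 TPM in siCNTL and 89.5, 77.1 and 77.0 TPM in untreated cells. Its highest SOX10 siRNA library, that of batch 3 in siSOX10_2, lay just under the lowest control library, and the change was -0.66 ± 0.12 (SE; limma adjusted p = 0.00127). The call of ATP6V0C with siSOX10_2 alone (limma adjusted p = 0.0272) ended under several alternatives, among them untreated cells as the control (limma adjusted p = 0.0702). ATP6V0B, another ring proteolipid, was the most abundant V-ATPase gene among the members. It averaged 606 ± 19.9 TPM in siSOX10_1 and 547 ± 21.9 TPM in siSOX10_2 (SD, n = 3 each). The controls averaged 773 ± 61.5 TPM in siCNTL and 781 ± 43.0 TPM in untreated cells (SD, n = 3 each). ATP6V0E1, a small V0 subunit, also fell, and is taken up below because the siRNAs differed on it.

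Of the 8 members of the V1 part, which hydrolyses ATP, 7 fell with the mean of both siRNAs, again with a median of -0.66. ATP6V1H, a regulatory subunit needed for ATP hydrolysis to drive pumping (chr8:53715543-53843558), had 66.4, 65.9 and 61.0 TPM in siSOX10_1 and 61.0, 50.7 and 59.9 TPM in siSOX10_2, against 112, 126 and 133 TPM in siCNTL and 141, 124 and 147 TPM in untreated cells. The change of -1.01 ± 0.099 (SE; limma adjusted p = 8.28e-06) left 52.2% of the siCNTL mean with siSOX10_1 and 46.3% with siSOX10_2. ATP6V1C1, the C subunit that leaves when V1 detaches from V0 (chr8:103021063-103073051), had 70.9, 73.9 and 57.7 TPM in siSOX10_1 and 61.3, 59.2 and 48.1 TPM in siSOX10_2, against 115, 126 and 104 TPM in siCNTL and 131, 114 and 109 TPM in untreated cells. Every SOX10 siRNA library was lower than every control library, with a change of -0.89 ± 0.12 (SE; limma adjusted p = 9.39e-05). ATP6V1D, part of the rotor (chr14:67294371-67360265), had 91.5, 98.3 and 90.0 TPM in siSOX10_1 and 117, 101 and 109 TPM in siSOX10_2, against 153, 163 and 192 TPM in siCNTL and 177, 164 and 177 TPM in untreated cells. The groups were again apart, and the change was -0.74 ± 0.092 (SE; limma adjusted p = 5.97e-05). The same separation held for ATP6V1B2 (-0.70), the nucleotide-binding B subunit, for ATP6V1G1 (-0.62), of the peripheral stalk, and for ATP6V1F (-0.52), of the rotor. ATP6V1E1, also of the stalk, overlapped between the groups and changed by -0.22 (limma adjusted p = 0.0367), a call that ended under 11 of 23 alternative settings.

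ATP6V1A, the subunit that hydrolyses the ATP, was the V1 member that did not pass, and its values were read for that reason after they were seen. It had 111, 111 and 120 TPM in siSOX10_1 and 93.6, 88.6 and 93.5 TPM in siSOX10_2, against 86.3, 103 and 125 TPM in siCNTL and 112, 94.0 and 126 TPM in untreated cells. Both SOX10 siRNAs overlapped with siCNTL, all siSOX10_2 libraries were below all untreated libraries and all siSOX10_1 libraries, and the change in the mean was -0.02 ± 0.12 (SE; limma adjusted p = 0.935). This averages 0.14 with siSOX10_1 and -0.17 with siSOX10_2, and the direct difference of siSOX10_2 from siSOX10_1 was -0.31 (limma adjusted p = 0.332). Of the accessory subunits, ATP6AP1, which helps assemble the pump (chrX:154428633-154436516), had 213.4, 201 and 192 TPM in siSOX10_1 and 173, 164 and 158 TPM in siSOX10_2, against 218.4, 221 and 245 TPM in siCNTL and 221, 202 and 217.3 TPM in untreated cells. Its siSOX10_2 libraries were below every control library while its siSOX10_1 libraries were not, and the mean change was -0.32 ± 0.078 (SE; limma adjusted p = 0.00666). ATP6AP2, the prorenin receptor, differed by 0.13 (limma adjusted p = 0.269). Summed over the 15 subunits, TPM were 2880, 2799 and 2627 in siSOX10_1 and 2804, 2688 and 2842 in siSOX10_2, against 3873, 3795 and 3817 in siCNTL and 4011, 3780 and 3899 in untreated cells. The lowest control sum stood well above the highest SOX10 siRNA sum.

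**Figure D2:**
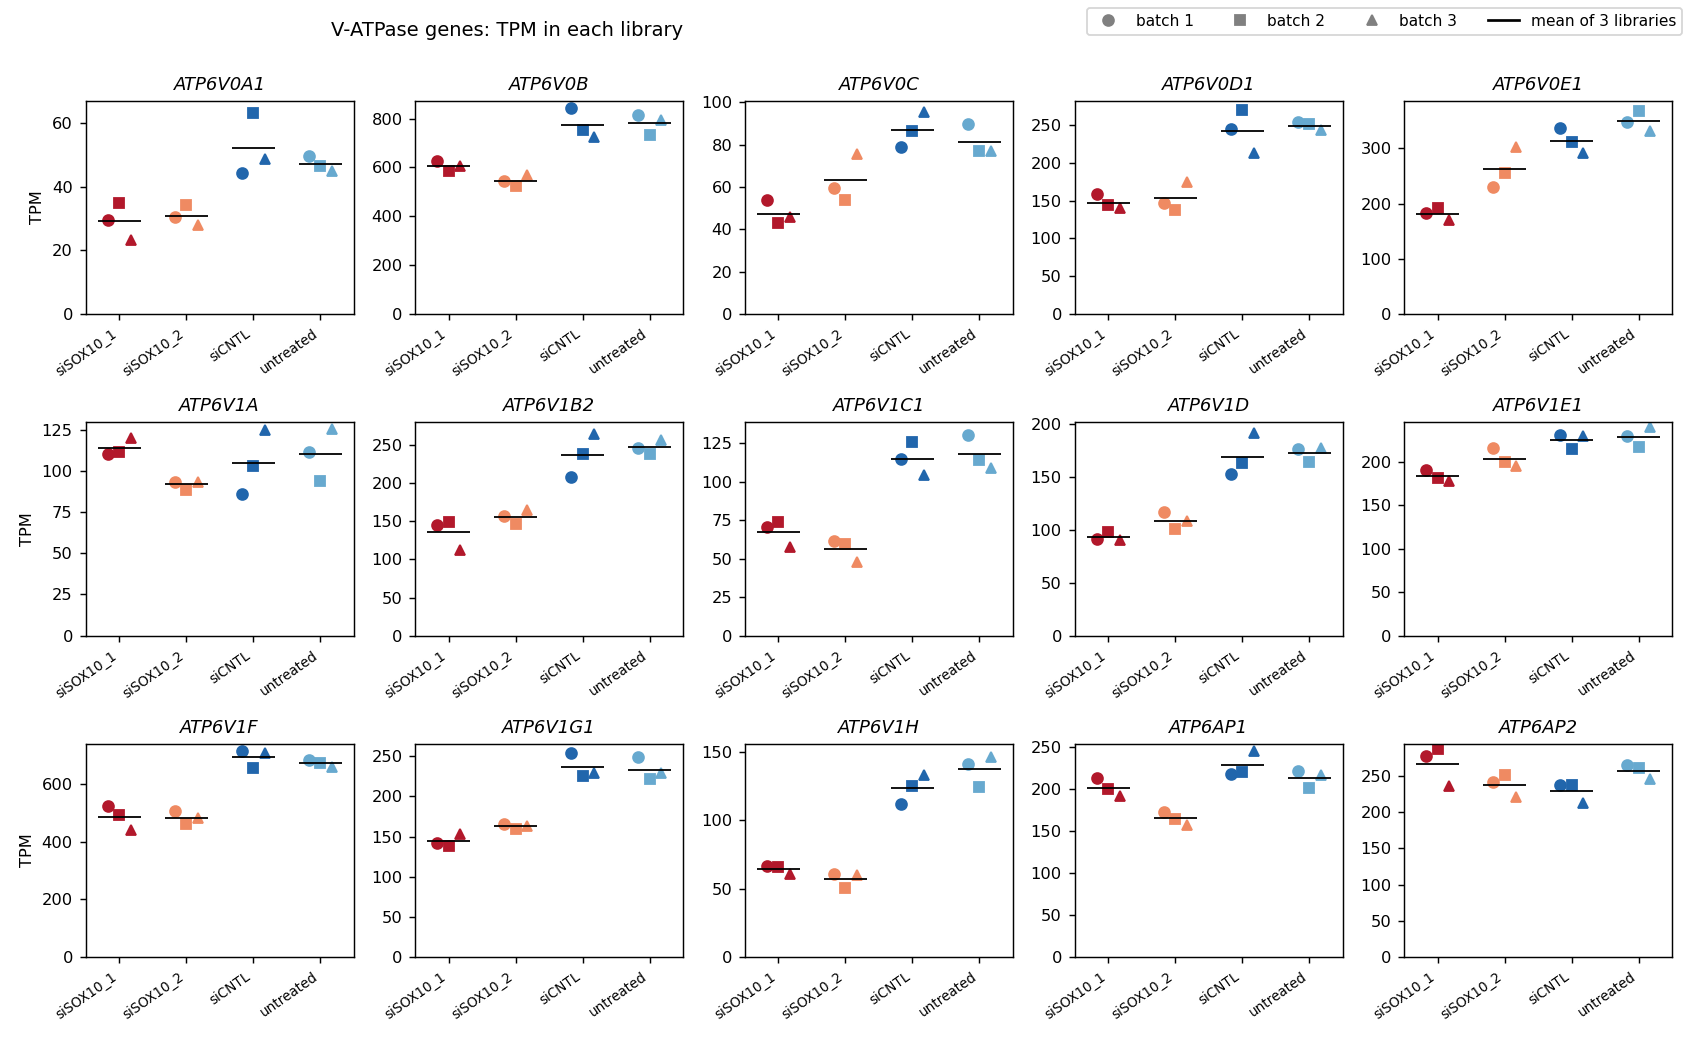
TPM of the 15 V-ATPase genes in each of the 12 libraries, on linear axes from 0, with siSOX10_1, siSOX10_2, siCNTL and untreated from left to right, a symbol for each batch and a line at each group mean. In 10 genes all 6 SOX10 siRNA libraries sit below all controls, and in ATP6V1A the 6 SOX10 siRNA libraries overlap with the controls while siSOX10_2 lies below siSOX10_1.

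Of the 7 cathepsins, the proteases of the lumen, CTSB and CTSD rose, CTSS fell and 4 did not pass with the mean of both siRNAs. These shares, 28.6% higher and 14.3% lower, lay near the 20.2% and 12.9% of all genes tested. CTSD, taken up below, passed with siSOX10_1 and not with siSOX10_2. CTSB, a cysteine protease (chr8:11842524-11869533), had 1214, 1196 and 1106 TPM in siSOX10_1 and 1066, 998 and 890 TPM in siSOX10_2, against 657, 744 and 709 TPM in siCNTL and 759, 708 and 755 TPM in untreated cells. All 6 SOX10 siRNA libraries were above all controls, with a change of 0.61 ± 0.076 (SE; limma adjusted p = 5.72e-05). CTSS, a cysteine protease best known from antigen processing (chr1:150730079-150765957), had 12.2, 9.48 and 19.3 TPM in siSOX10_1 and 5.52, 3.36 and 8.51 TPM in siSOX10_2, against 18.3, 17.9 and 20.6 TPM in siCNTL and 19.9, 16.2 and 21.8 TPM in untreated cells. The siSOX10_2 libraries lay below all controls and the siSOX10_1 libraries reached into them. The change was -1.06 ± 0.25 (SE; limma adjusted p = 0.00523) in the mean and -1.62 ± 0.29 (SE; limma adjusted p = 0.00101) with siSOX10_2. CTSA, the carboxypeptidase that protects GLB1 and NEU1 (-0.26), CTSL (0.21) and CTSZ (-0.07) did not pass (limma adjusted p = 0.122, 0.255 and 0.834).

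Among 5 glycosidases, GLB1 and NEU1 fell and GAA, GLA and HEXA did not pass with the mean of both siRNAs. All 5 log2 fold changes were negative, from -1.04 to -0.26 with a median of -0.50. GLB1, the lysosomal beta-galactosidase (chr3:32996609-33097202), had 78.7, 81.4 and 22.7 TPM in siSOX10_1 and 124, 120 and 87.6 TPM in siSOX10_2, against 155, 168 and 150 TPM in siCNTL and 161, 133 and 178 TPM in untreated cells. Its highest SOX10 siRNA library was below its lowest control library, and its change was -1.04 ± 0.34 (SE; limma adjusted p = 0.0341). GLB1 fell with siSOX10_1 (-1.56, limma adjusted p = 0.0122) and did not pass with siSOX10_2 (-0.52, limma adjusted p = 0.358). With only the groups compared, siSOX10_1 lost its call and siSOX10_2 passed as lower (limma adjusted p = 0.0579 and 0.0362). The siSOX10_2 comparison also passed without siSOX10_1 replicate 3 or without batch 3 (limma adjusted p = 0.0148 and 0.0153). The call in the mean ended without siCNTL replicate 1, 2 or 3 or siSOX10_2 replicate 3 (limma adjusted p = 0.0920, 0.0999, 0.0769 and 0.0736). It also ended with only the groups compared and without a filter (limma adjusted p = 0.0549 and 0.0620). NEU1, the sialidase that works in a complex with GLB1 and CTSA (chr6:31857659-31862905), had 135, 137 and 104 TPM in siSOX10_1 and 125, 131 and 132 TPM in siSOX10_2, against 170, 168 and 177 TPM in siCNTL and 160, 162 and 164 TPM in untreated cells. It was apart in all 12 libraries, with a change of -0.43 ± 0.093 (SE; limma adjusted p = 0.00305). GAA, which breaks down glycogen, and GLA, the alpha-galactosidase, fell with siSOX10_2 (-0.73 and -0.41, limma adjusted p = 0.0454 and 0.0248), calls that ended under 12 and 6 of 23 alternatives, most of them with 1 library left out. Their mean changes were -0.50 and -0.26 (limma adjusted p = 0.0995 and 0.0799).

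The deepest fall and the steepest rise of all members were both among the 5 genes of lipid breakdown and sterol export. ASAH1, the acid ceramidase (chr8:18055992-18084998), had 308, 281 and 134 TPM in siSOX10_1 and 254, 251 and 120 TPM in siSOX10_2, against 838, 819 and 591 TPM in siCNTL and 820, 775 and 723 TPM in untreated cells. That left 32.2% of the siCNTL mean with siSOX10_1 and 27.8% with siSOX10_2, a change of -1.80 ± 0.30 (SE; limma adjusted p = 0.000876). NPC2, the luminal protein that binds cholesterol and hands it to NPC1 (chr14:74476192-74494177), had 233, 251 and 139 TPM in siSOX10_1 and 236, 232 and 145 TPM in siSOX10_2, against 489, 457 and 466 TPM in siCNTL and 475, 511 and 472 TPM in untreated cells. NPC1, the membrane protein that exports that cholesterol (chr18:23506184-23586506), had 29.2, 33.3 and 38.7 TPM in siSOX10_1 and 37.1, 39.2 and 55.8 TPM in siSOX10_2, against 14.9, 19.9 and 14.3 TPM in siCNTL and 16.1, 14.1 and 13.6 TPM in untreated cells. These partners therefore moved in opposite directions without any overlap between SOX10 siRNA and control libraries. NPC2 changed by -1.23 ± 0.18 (SE; limma adjusted p = 0.000283) and NPC1 by 1.19 ± 0.16 (SE; limma adjusted p = 0.000133). PSAP, the precursor of the saposins that present lipids to hydrolases, differed by -0.54 (limma adjusted p = 0.0869) and LIPA, the acid lipase, by -0.14 (limma adjusted p = 0.413). PSAP did pass as lower without batch 3 and under median-of-ratios scaling (limma adjusted p = 0.00119 and 0.00874). It also passed with untreated cells as the control (limma adjusted p = 0.0343).

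In the lumen, GRN, the progranulin gene (chr17:44345246-44353106), had 706, 632 and 620 TPM in siSOX10_1 and 608, 556 and 634 TPM in siSOX10_2, against 418, 441 and 492 TPM in siCNTL and 488, 445 and 515 TPM in untreated cells. Every SOX10 siRNA library was above every control, with a change of 0.48 ± 0.083 (SE; limma adjusted p = 0.000743), while its call with siSOX10_2 alone (limma adjusted p = 0.00577) ended under median-of-ratios scaling (limma adjusted p = 0.159). TPP1, a tripeptidyl peptidase, differed by 0.02 (limma adjusted p = 0.932). In the membrane, CD68, a heavily glycosylated lysosomal protein of macrophages and other cells (chr17:7579491-7582111), had 57.7, 65.9 and 52.6 TPM in siSOX10_1 and 72.9, 69.8 and 76.5 TPM in siSOX10_2, against 37.2, 49.4 and 46.6 TPM in siCNTL and 29.9, 31.5 and 36.2 TPM in untreated cells. It rose without overlap by 0.56 ± 0.12 (SE; limma adjusted p = 0.00301), while most macrophage markers stayed below 1 TPM throughout, as given above.

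MCOLN1, the cation channel that releases lysosomal calcium (chr19:7522624-7534009), had 6.11, 4.95 and 3.43 TPM in siSOX10_1 and 5.56, 6.90 and 7.75 TPM in siSOX10_2, against 9.82, 9.87 and 8.42 TPM in siCNTL and 10.6, 8.24 and 7.33 TPM in untreated cells. The siSOX10_1 libraries lay below every control library and the siSOX10_2 libraries overlapped with the untreated cells, and the mean change was -0.64 ± 0.19 (SE; limma adjusted p = 0.0218), which did not pass without siCNTL replicate 1 or 2 (limma adjusted p = 0.0815 and 0.0760). LAMP2, an abundant glycoprotein of the membrane (chrX:120426148-120469365), had 306, 324 and 253 TPM in siSOX10_1 and 252, 262 and 226 TPM in siSOX10_2, against 327, 317 and 328 TPM in siCNTL and 397, 364 and 402 TPM in untreated cells. The siSOX10_2 libraries lay below every control library and the siSOX10_1 libraries overlapped with siCNTL. Its mean change was -0.27 ± 0.089 (SE; limma adjusted p = 0.034), and the difference between the siRNAs was -0.25 (limma adjusted p = 0.286). It did not pass without siCNTL replicate 1, 2 or 3 or siSOX10_2 replicate 3 (limma adjusted p = 0.0985, 0.0701, 0.0817 and 0.0575). Nor did it pass without batch 3, with only the groups compared or without a filter (limma adjusted p = 0.0845, 0.0604 and 0.0682). Quantile normalization and limma without its trend and robust settings ended the call too (limma adjusted p = 0.0849 and 0.101). LAMP1, its relative, differed by 0.08 (limma adjusted p = 0.684) at 13.6 to 20.2 TPM over all 12 libraries, and SCARB2, the receptor that carries beta-glucocerebrosidase to the lysosome, by -0.07 (limma adjusted p = 0.734).

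**Figure D3:**
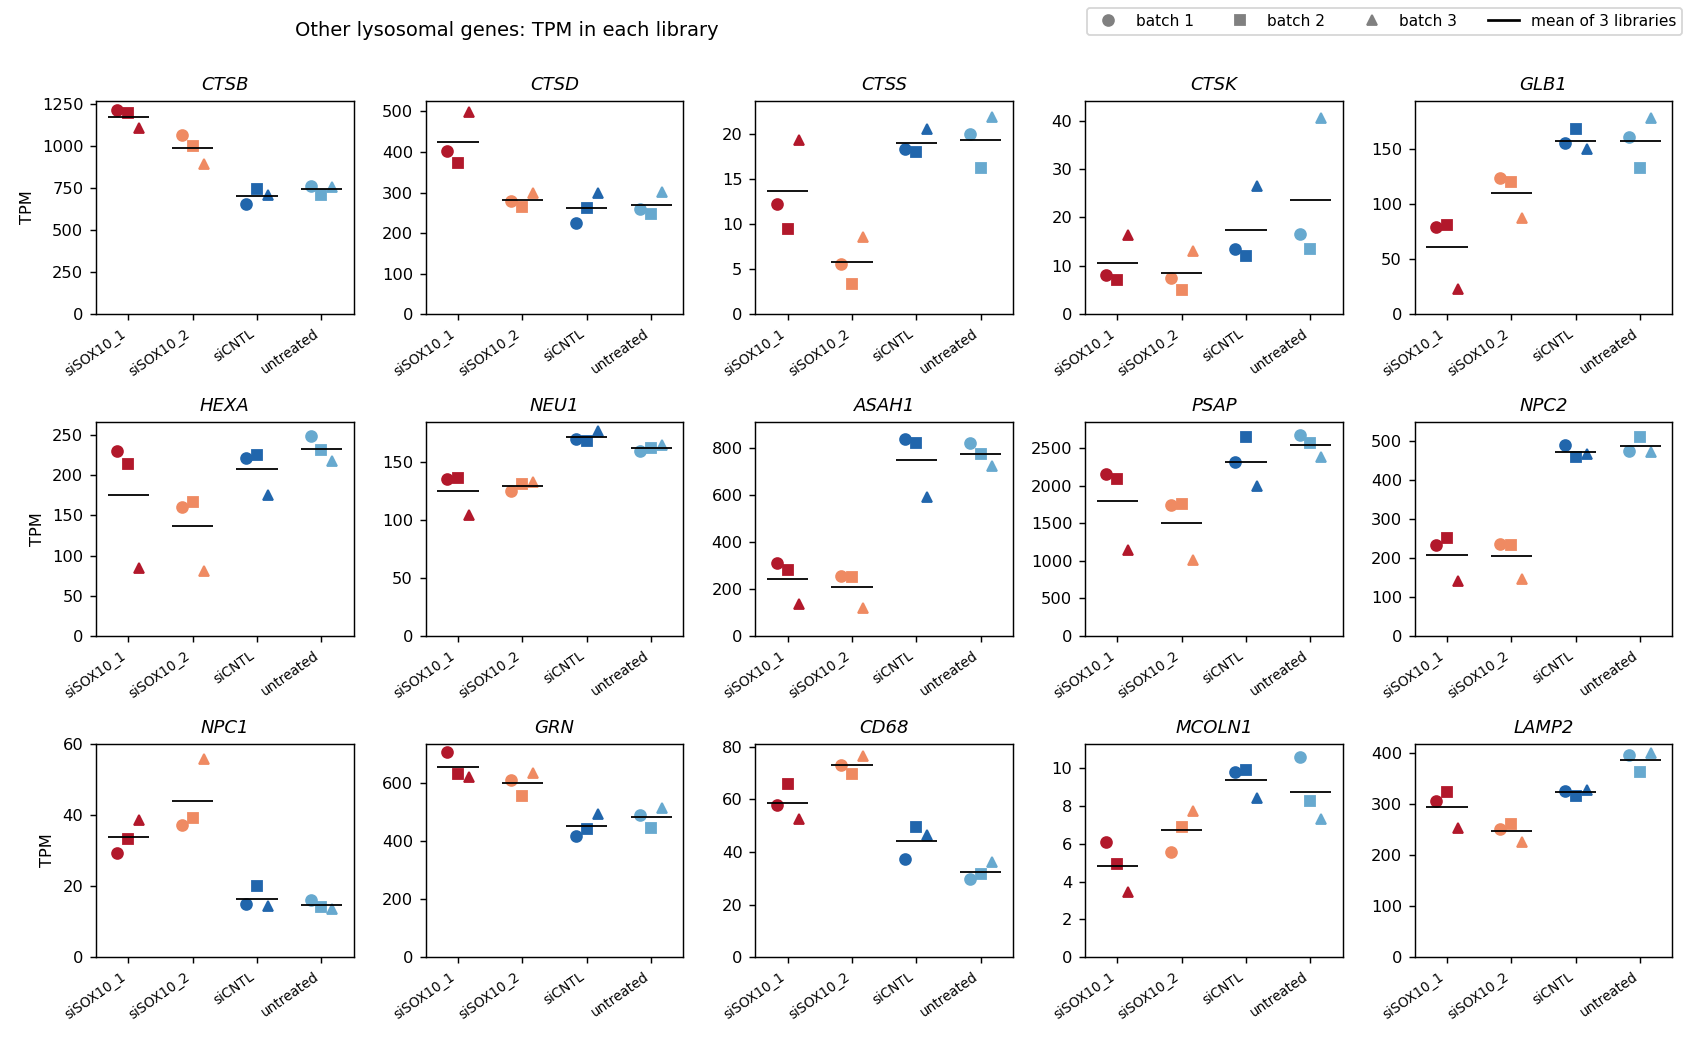
TPM of 15 members outside the V-ATPase in each of the 12 libraries, on linear axes from 0, with siSOX10_1, siSOX10_2, siCNTL and untreated from left to right, a symbol for each batch and a line at each group mean. ASAH1 and NPC2 sit lower and CTSB, NPC1, GRN and CD68 higher in all 6 SOX10 siRNA libraries, and the batch 3 libraries of both SOX10 siRNAs stand below those of batches 1 and 2 for ASAH1 and NPC2.

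Ranked by library rather than by model, 14 members had all 6 SOX10 siRNA libraries below all 6 siCNTL and untreated libraries, and 4 had them all above. Among all genes tested, 9.37% were lower and 14% higher in this sense. The 14 were 10 V-ATPase genes together with GLB1, NEU1, ASAH1 and NPC2, and the 4 were CTSB, NPC1, GRN and CD68. The remaining 21 overlapped.

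Set directly against each other, the siRNAs differed on ATP6V0E1 and CTSD, while 1.07% of all genes were higher and 0.489% lower with siSOX10_2 than with siSOX10_1. ATP6V0E1 (chr5:172983771-173035445) had 229, 256 and 302 TPM in siSOX10_2, against 183, 192 and 169 TPM in siSOX10_1, and the controls had 336, 311 and 291 TPM in siCNTL and 347, 367 and 332 TPM in untreated cells. It was higher with siSOX10_2 in all 3 batches, by 0.52 ± 0.11 (SE; limma adjusted p = 0.033), and it fell against siCNTL with siSOX10_1 (-0.78) while it did not pass with siSOX10_2 (-0.26, limma adjusted p = 0.0933). Without siSOX10_2 replicate 3 it passed there too (limma adjusted p = 0.0221). CTSD, the main aspartic protease of the lysosome (chr11:1752752-1764573), had 279, 263 and 299 TPM in siSOX10_2, against 403, 373 and 499 TPM in siSOX10_1, and the controls had 224, 262 and 298 TPM in siCNTL and 259, 247 and 302 TPM in untreated cells. CTSD rose with siSOX10_1 (0.70, limma adjusted p = 0.00184) and did not pass with siSOX10_2 (0.11, limma adjusted p = 0.588), and its call in the mean (0.40, limma adjusted p = 0.0157) ended without siCNTL replicate 1 (limma adjusted p = 0.104) and under median-of-ratios scaling (limma adjusted p = 0.163). The siSOX10_2 libraries lay within the range of the controls and below every siSOX10_1 library, with a difference of -0.59 ± 0.13 (SE; limma adjusted p = 0.0465). CTSS was lower with siSOX10_2 than with siSOX10_1 by -1.13 without passing (limma adjusted p = 0.0727), and passed with the batch as a block (limma adjusted p = 0.0106).

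The control siRNA alone moved none of the 39 members past the threshold: siCNTL against untreated gave 0 calls, 0% of all genes were higher and 0% lower, and 3 members reached an unadjusted p under 0.05 in limma. These were CD68 (0.43), CTSL (0.36) and LAMP2 (-0.26), with unadjusted limma p of 0.00847, 0.0363 and 0.0270. For CD68 the siCNTL libraries thus stood between the SOX10 siRNA libraries and the untreated ones, and its call with siSOX10_1 against siCNTL (limma adjusted p = 0.0468) was lost under 13 of 23 alternatives.

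In batch 3 several hydrolases stood apart, and the pump's median stayed near that of the other batches. Each SOX10 siRNA library was therefore set against the siCNTL library of its own batch. The V-ATPase median difference in log2(TPM + 1) was -0.55, -0.69 and -0.69 in batches 1, 2 and 3 with siSOX10_1, and -0.49, -0.52 and -0.49 with siSOX10_2, and 13 or 14 of 15 subunits were lower each time. For the 24 other members the medians were 0.048, -0.068 and -0.32 with siSOX10_1 and -0.16, -0.32 and -0.50 with siSOX10_2. Medians over all genes were also lowest in batch 3, at 0.11, 0.048 and -0.041 with siSOX10_1 and 0.17, 0.13 and 0.061 with siSOX10_2. Over all 6 within-batch differences, 20 members were lower each time, 7 were higher each time and 12 were mixed. The 7 were CTSB, NPC1, GRN, CD68, CTSD, CTSL and ATP6AP2. Shares over all genes were not counted for these signs, and both differences of a batch share its siCNTL library.

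The genes with the most distinct batch 3 were read after their values were seen. ASAH1 differed by -1.44, -1.54 and -2.13 in batches 1, 2 and 3 with siSOX10_1 and by -1.72, -1.70 and -2.29 with siSOX10_2. GLB1 differed by -0.97, -1.04 and -2.67 with siSOX10_1 and by -0.33, -0.48 and -0.77 with siSOX10_2. Both genes were lower in all 3 batches, most of all in batch 3. HEXA, a subunit of beta-hexosaminidase, had 230, 213.8 and 84.3 TPM in siSOX10_1 and 161, 167 and 80.8 TPM in siSOX10_2, against 222, 226 and 176 TPM in siCNTL and 250, 232 and 217.5 TPM in untreated cells. PSAP had 2160, 2097 and 1143 TPM in siSOX10_1 and 1740, 1755 and 1007 TPM in siSOX10_2, against 2320, 2652 and 1994 TPM in siCNTL and 2685, 2572 and 2385 TPM in untreated cells. In both genes the SOX10 siRNA libraries of batch 3 were far below the others. When batch 3 was left out, 26 members passed with siSOX10_1, 27 with siSOX10_2 and 27 with the mean. Calls over all genes also grew, to 34.4%, 34.8% and 39.9% without batch 3, against 27.3%, 28.8% and 33.1% with it.

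SOX10 itself was lowest in those same libraries, where siSOX10_1 left 3.32 TPM and siSOX10_2 left 4.24 TPM. CTSK, a collagen-cleaving cysteine protease, had 8.02, 7.13 and 16.4 TPM in siSOX10_1 and 7.49, 4.96 and 13.2 TPM in siSOX10_2, against 13.5, 12.0 and 26.6 TPM in siCNTL and 16.6, 13.6 and 40.6 TPM in untreated cells, so batch 3 was high in every group. With the batch as a block, CTSK, PSAP and GAA passed as lower with the mean of both siRNAs (limma adjusted p = 0.000676, 0.00556 and 0.0194). Without the block and with no other change they did not (limma adjusted p = 0.138, 0.0869 and 0.0995).

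**Figure D4:**
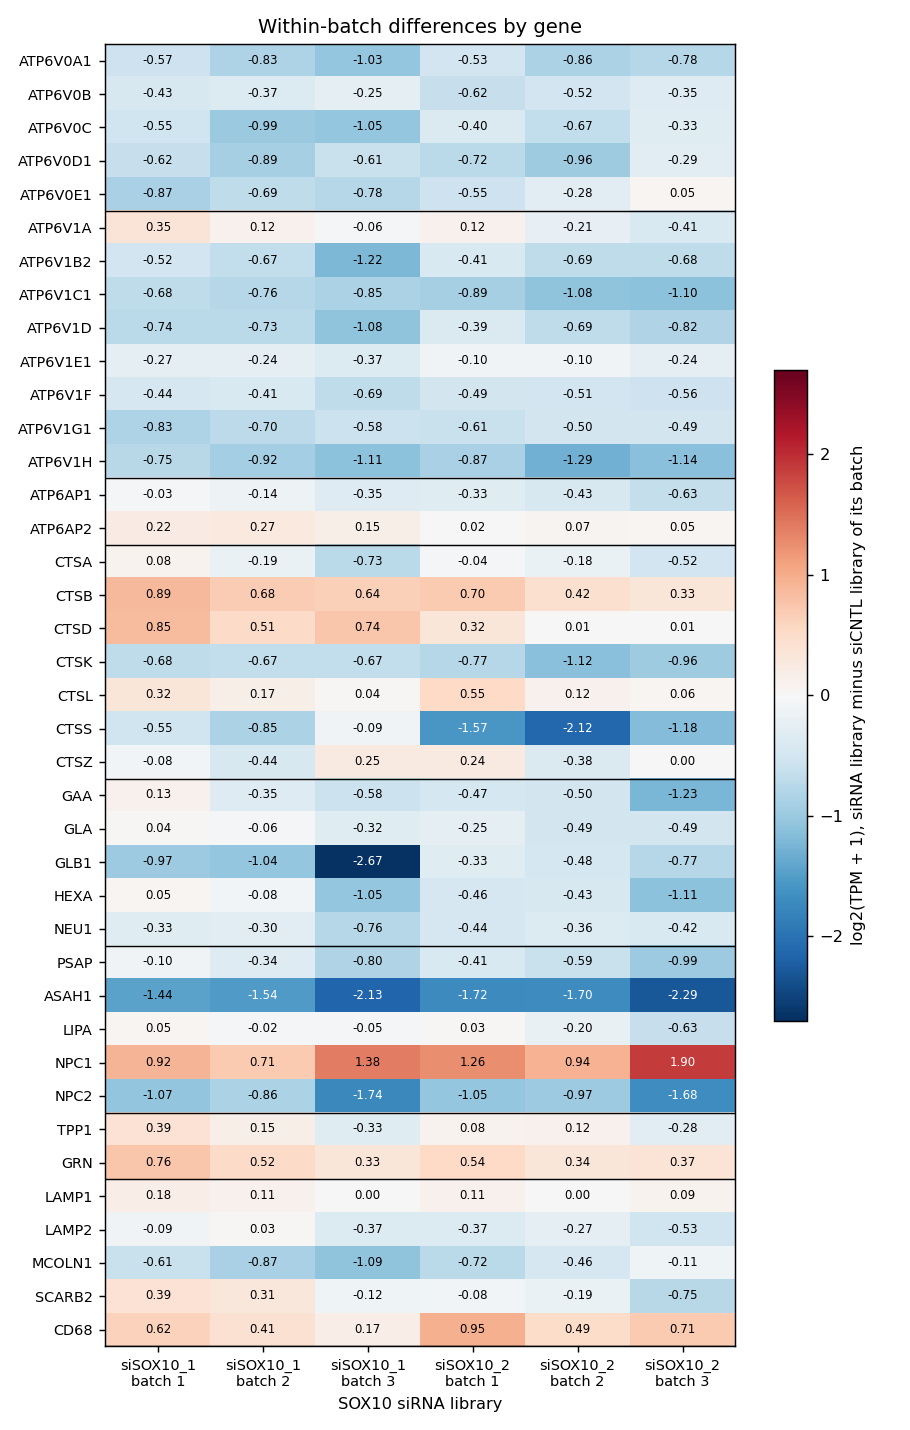
Difference in log2(TPM + 1) between each SOX10 siRNA library and the siCNTL library of the same batch, drawn as a colour grid with 1 row per member, lines between roles and 1 column per library, blue for lower and red for higher, with the value in each cell. Most V-ATPase rows are blue in all 6 columns, and GLB1, ASAH1, HEXA and PSAP are darkest in the batch 3 columns of their siRNA.

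Other genes of the same organelle changed in both directions. Over all genes tested, 20.2% rose and 12.9% fell with the mean of both siRNAs. The shares that rose among the V-ATPase isoforms (18.2%) and membrane genes (20%) below lay near that. Of 11 other V-ATPase subunit genes, mostly tissue-restricted isoforms, 4 fell and 2 rose with the mean of both siRNAs, with a median of 0.046. Those with the largest changes were ATP6V0A4 (-1.77), ATP6V0D2 (-1.27), ATP6V1B1 (1.01) and ATP6V1E2 (-0.90). TCIRG1, another V0 a subunit, was the other gene that rose (0.55), and ATP6V0A2 did not pass (0.10), both named after their values were seen. RNASEK, the most abundant gene of this list, was also read after its values were seen. It averaged 1360 TPM in siSOX10_1 and 1611 TPM in siSOX10_2, against 1338 TPM in siCNTL and 1236 TPM in untreated cells. Its SOX10 siRNA and control libraries overlapped, so not every abundant gene of the pump fell. Of 32 other lysosomal hydrolases and activators, 8 rose and 8 fell with a median of 0.037, and the largest changes were those of CTSW (2.21), FUCA1 (2.08), ACP5 (-1.98) and CTSO (1.45). FUCA1, the lysosomal fucosidase, averaged 260.7 TPM in siSOX10_1 and 249 TPM in siSOX10_2, against 59.3 TPM in siCNTL. Of 20 other lysosomal membrane genes, 4 rose and 6 fell with a median of -0.17, led by LAMP3 (2.65), LAPTM5 (2.15), OSTM1 (-1.80) and TPCN1 (1.25). Of 9 genes of mannose 6-phosphate sorting, which delivers hydrolases to the lysosome, GNPTAB alone passed, at -1.41. Of 20 autophagy genes, 8 rose and 4 fell with a median of 0.23, led by GABARAPL1 (0.83), ATG7 (0.82), NBR1 (0.79) and OPTN (-0.74).

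The MiT/TFE factors themselves moved in opposite directions. MITF had 133, 131 and 35.6 TPM in siSOX10_1 and 102, 86.4 and 29.01 TPM in siSOX10_2, against 321, 349 and 465 TPM in siCNTL and 357, 370 and 435 TPM in untreated cells. TFE3 had 21.4, 20.6 and 23.1 TPM in siSOX10_1 and 14.7, 15.4 and 20.1 TPM in siSOX10_2, against 3.61, 4.83 and 7.04 TPM in siCNTL and 4.52, 5.18 and 5.78 TPM in untreated cells. TFEB had 4.35, 3.60 and 3.23 TPM in siSOX10_1 and 6.15, 5.81 and 5.40 TPM in siSOX10_2, against 2.34, 2.50 and 2.75 TPM in siCNTL and 1.96, 1.38 and 2.82 TPM in untreated cells. None of these 3 genes overlapped between SOX10 siRNA and control libraries. With the mean of both siRNAs MITF changed by -2.32, TFE3 by 1.73 and TFEB by 0.68 (limma adjusted p = 0.0045, 1.88e-05 and 0.0163). TFEC reached at most 0.664 TPM and was not tested. Over the 15 tested genes of this list, which also holds the Rag GTPases and folliculin proteins that keep TFEB and TFE3 at the lysosome, 9 fell and 2 rose with a median of -0.46, RRAGD (-1.01) and FNIP2 (-0.96) among those that fell. Among all genes tested, 12.9% fell and 20.2% rose.

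**Figure D5:**
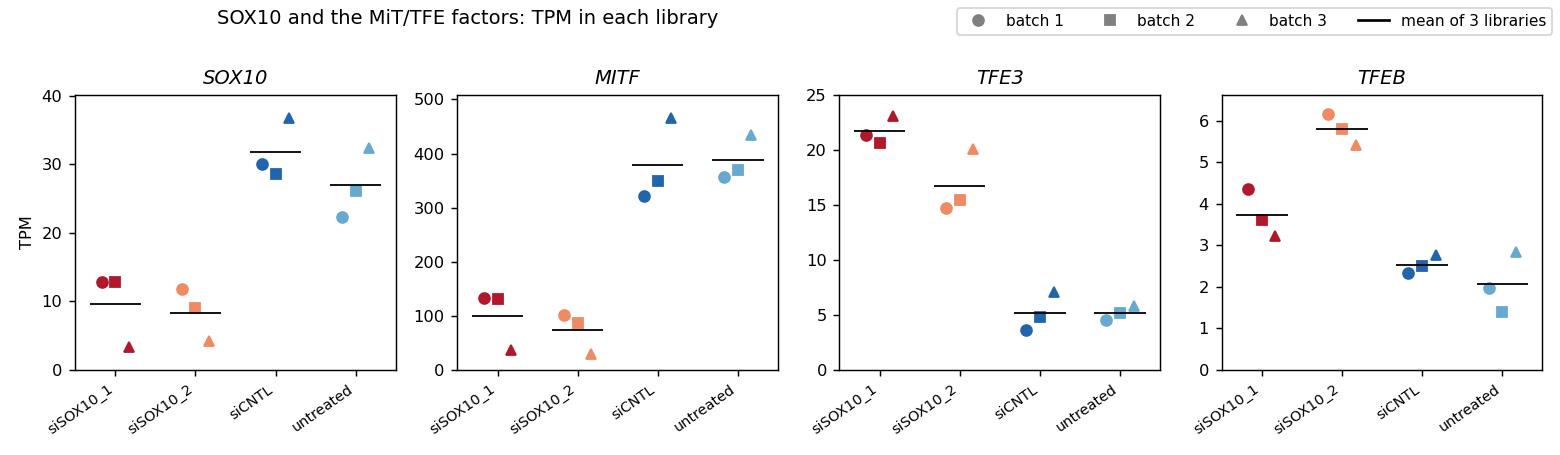
TPM of SOX10 and the MiT/TFE factors MITF, TFE3 and TFEB in each of the 12 libraries, on linear axes from 0, with siSOX10_1, siSOX10_2, siCNTL and untreated from left to right, a symbol for each batch and a line at each group mean. MITF is lower and TFE3 and TFEB are higher in all 6 SOX10 siRNA libraries, and MITF and SOX10 are lowest in batch 3 of each SOX10 siRNA.

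Several members share their place with other expressed genes, with the use of strand in quantification not given in the sources used here. NPC1 overlaps RMC1 (32.3 TPM over all libraries), NPC2 overlaps ISCA2 (107 TPM), GLA overlaps RPL36A (121 TPM) and CTSZ overlaps NELFCD (75.1 TPM), so reads of these pairs may be split between partners.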

How the data were processed

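RNA was measured in 12 libraries made with SMART-Seq v4 and Nextera XT kits, per the labels' protocols, with bcl2fastq and DRAGEN named in the submitters' processing notes. The authors deposited 1 table of TPM, which sum to 1000000 in each library, so depth and counting error are unknown, and a rise of abundant genes lowers all others. Coordinates are the table's own, and all 39 members overlap the same gene in GENCODE v29 (GRCh38), with builds and annotation versions not given in the sources used here. All 39 members and the other lists were chosen with earlier results of these data known.

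Groups and batches come from the labels. The test was limma 3.58.1 in R 4.3.3 on log2(TPM + 1), which understates changes of low genes, for genes at 1 TPM or more in 3 or more libraries, with group means over all 12 libraries, the trend and robust settings, 8 residual degrees of freedom and Benjamini-Hochberg adjustment at 0.05 over 15738 genes. The fit was tested on simulated data. Per-library values are given for up to 3 called members per role with the largest mean change and for members called between the siRNAs, and up to 4 called genes per other list are named. CTSK, PSAP, HEXA, ATP6V1A, the levels of FUCA1 and RNASEK and the overlapping genes were chosen after their values were seen. The replicate number is the batch in the labels and so pairs libraries: the median correlation of deviations from group means was 0.179 in 18 same-batch pairs and -0.0974 in 36 others. Alternatives were a batch block, each library or all of batch 3 left out, only the compared groups, other filters, pseudocounts, scalings and thresholds, limma without its options, and untreated cells as the control.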

Additional observations from a re-analysis of the deposited data

Results flagged for a closer look

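The siRNAs differed from each other in their effect on 2 members. ATP6V0E1 was higher with siSOX10_2 than with siSOX10_1 by 0.52 on the log2 scale (limma adjusted p = 0.033), and CTSD was lower by -0.59 (limma adjusted p = 0.0465). Both were apart in all 3 libraries of each siRNA. The call for ATP6V0E1 was lost under 13 alternatives and that for CTSD under 15, with limma adjusted p between 0.0273 and 0.169 and between 0.00615 and 0.153.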

How the results depend on the processing

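Against siCNTL, 18 of 22 members called with siSOX10_1, 18 of 22 with siSOX10_2 and 20 of 25 with the mean of both passed under each of 23 alternatives, and none of the called members changed sign. In the mean, ATP6V1E1, CTSD, GLB1, LAMP2 and MCOLN1 lost the call somewhere. With the batch as a replicate block, 24, 25 and 28 members passed with siSOX10_1, siSOX10_2 and their mean, and 3 between the siRNAs, while calls over all genes came to 32.9%, 33.8%, 38.3% and 3.1%, against 27.3%, 28.8%, 33.1% and 1.56% without the block. A fold of at least 1.5 left 12 members with siSOX10_2 and 15 with the mean, and 6 and 8 V-ATPase genes lower. Leaving out 1 library gave 20 to 22 members with siSOX10_1, 19 to 25 with siSOX10_2 and 20 to 25 with the mean.

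Between siSOX10_2 and siSOX10_1, where 2 members passed, 0 to 2 passed with 1 library left out. Without batch 3, 5 passed, namely CTSD, CTSS, GLB1, HEXA and SCARB2. With only the groups compared, without a filter, without limma's trend and robust settings or at an adjusted p under 0.01, 0 passed. ATP6V0E1 alone passed with a pseudocount of 0.1, and CTSD alone at a fold of 1.5. Under median-of-ratios scaling both lost the call and SCARB2 alone passed (-0.62, limma adjusted p = 0.0290).

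Some members that were not called changed sign in the mean of both siRNAs (log2 fold changes). With 1 library left out, ATP6V1A ranged from -0.15 to 0.12, CTSZ from -0.24 to 0.055, TPP1 from -0.040 to 0.12 and SCARB2 from -0.13 to 0.025. Without batch 3, ATP6V1A was 0.093 and SCARB2 0.11. With untreated cells as the control, ATP6AP2 was -0.030, CTSZ 0.29 and TPP1 -0.17. Median-of-ratios scaling gave TPP1 -0.069 and LAMP1 -0.0080, and quantile normalization gave LAMP1 -0.055. The causes were not tested. TPM hold no depth, so no counting limit can be given.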
